A study of Mus musculus with 13 samples.

Results

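Neat1, Malat1, Gas5 and Snhg1 are 4 of the 37310 genes annotated for the mouse assembly mm9, and they encode long noncoding RNAs known from other work to be abundant. They were selected by symbol from earlier results of these data, in which the RNA polymerase II (Pol II) peak over Neat1 was among the highest-scoring of its list, so their Pol II peaks are given as a description and with no test. The abundance of the RNAs themselves could not be checked, because RNA was not measured in these libraries.

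The cells were Hepa 1-6, a mouse hepatoma line, profiled by ChIP-seq, in which the DNA bound by an antibody's target is sequenced and regions rich in reads are called. KAP1, a corepressor protein encoded by Trim28, was profiled in cells under standard culture, as were 3 histone marks. Of these, H3K27ac and H3K4me1 are marks that the study treats as active, and H3K9me3 is one that it treats as repressive. Pol II and RNA polymerase III (Pol III) were profiled 5 days after cells were transduced with a vector carrying an shRNA against KAP1 (Kap1 KD) or with a control vector. The labels write both transduced and, of the shRNA plasmid, transfected. The control carried a control shRNA according to the labels, whereas the study's methods name an empty pLKO vector. KAP1 was not profiled in the Kap1 KD cells here, and no knockdown level was computed. There was 1 library for each antibody and condition, so no value below carries a replicate error. The files list regions and hold no read counts, so library depth is unknown and a difference between the control and Kap1 KD lists cannot be told apart from a difference in depth.

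Neat1 RNA is the scaffold of paraspeckles, nuclear bodies that assemble on the RNA as it is made, and its gene gives a short and a long transcript from the same start. Malat1 RNA lies in nuclear speckles, where splicing factors are stored. Gas5 and Snhg1 are host genes of box C/D small nucleolar RNAs (snoRNAs), which are cut out of their introns and guide methylation of other RNAs, while the spliced host RNA is short-lived.

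Neat1 (ENSMUSG00000092274.1) lies on the minus strand of chromosome 19 from 5824708 to 5845478, a length of 20771 bp. Malat1 (ENSMUSG00000092341.1) follows it on the same strand from 5795690 to 5802671 and is 6982 bp long. Gas5 (ENSMUSG00000053332.7) is on the plus strand of chromosome 1 from 162964553 to 162968670, over 4118 bp. Snhg1 (ENSMUSG00000090867.1) is on the plus strand of chromosome 19 from 8797986 to 8800932, over 2947 bp. Gas5 has 25 annotated transcripts, and 14 of them start within 30 bp of each other, the first 741 bp downstream of the 5′ end of the gene.

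The sequences around 3 of the start sites are shown. For Gas5, the control Pol II call described below turns on which start is used. Each runs 5′ to 3′ on the strand of the gene from 250 bases before to 50 bases after the start, and was read from the mm9 genome at chr19:5802622-5802921 for Malat1, chr1:162965044-162965343 for the Gas5 transcript cluster and chr19:8797736-8798035 for Snhg1. Capitals mark matches to the letters of a searched motif on either strand.
Malat1: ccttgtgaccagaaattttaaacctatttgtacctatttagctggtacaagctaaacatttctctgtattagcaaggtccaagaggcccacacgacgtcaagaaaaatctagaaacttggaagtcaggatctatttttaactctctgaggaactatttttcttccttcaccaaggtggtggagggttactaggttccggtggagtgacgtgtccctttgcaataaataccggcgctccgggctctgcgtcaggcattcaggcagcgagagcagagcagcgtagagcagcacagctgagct
Gas5 transcript cluster: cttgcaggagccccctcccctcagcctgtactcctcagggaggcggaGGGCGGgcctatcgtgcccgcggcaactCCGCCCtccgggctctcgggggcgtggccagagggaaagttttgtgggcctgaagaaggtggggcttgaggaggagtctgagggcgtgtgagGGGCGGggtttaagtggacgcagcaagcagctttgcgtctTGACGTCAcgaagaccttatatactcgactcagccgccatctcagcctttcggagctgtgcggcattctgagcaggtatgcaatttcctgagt
Snhg1: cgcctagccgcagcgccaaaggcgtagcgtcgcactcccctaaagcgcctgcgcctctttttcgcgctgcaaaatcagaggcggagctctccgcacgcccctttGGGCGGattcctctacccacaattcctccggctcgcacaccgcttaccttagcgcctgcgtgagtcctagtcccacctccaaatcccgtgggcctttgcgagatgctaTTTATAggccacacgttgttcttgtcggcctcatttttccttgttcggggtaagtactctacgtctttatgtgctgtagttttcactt

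The TATA box letters TATAAA stood from -38 to -33 on the opposite strand in Snhg1, where the printed strand reads TTTATA. These letters occurred in 16.2% of the 37308 promoter windows of the same length. The GC box letters GGGCGG matched once in Snhg1 and at 3 positions before the Gas5 cluster, and they occurred in 30.4% of all windows. The full cAMP response element TGACGTCA stood from -43 to -36 before the Gas5 cluster and occurred in 1.61% of all windows. No match was found in Malat1, or in the window at the 5′ end of the Gas5 gene. The other letters searched were CCAAT (38.4% of all windows), CACGTG (6.21%), TGACTCA with its reverse complement TGAGTCA (4.45%) and CCGGAAG (7.55%). Also searched were the NRF1 element (0.777%), the ZNF143 element (1.55%) and the palindromic CGCG element (0.378%). None of these occurred in the 4 windows reported here. Matches did not overlap each other. The windows held 47.0% G and C in Malat1, 62.0% at the Gas5 cluster and 56.3% in Snhg1, against a median of 50.3% over all windows. Snhg1 had the most CpG sites of the 3 printed windows, 25, and Malat1 the fewest, 10, where the median was 6.

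Active chromatin and KAP1 lay over all 4 promoters, here the 250 bp on either side of a gene's 5′ end, where 1 shared bp counted. A KAP1 peak touched the promoter in 4 of 4 members (11.0% of all annotated genes) and an H3K27ac region likewise in 4 of 4 (14.6%). H3K27ac covered 11.0% of the promoter window in Gas5, 27.9% in Neat1, 52.7% in Snhg1 and 70.9% in Malat1, so that 2 of 4 remained when at least 0.5 of the window had to be covered. H3K4me1 touched the promoters of Malat1 and Gas5, 2 of 4 (9.76%), a count that was 0 at that coverage and 4 with promoters of 1 kb to each side. H3K9me3 touched 0 of 4 (5.6%), and with so low a share over all genes nothing is read from this count or from those of Pol III. Pol II lay over 3 of 4 promoters in the control (9.46%), all but that of Gas5, and over 4 of 4 under Kap1 KD (16.5%). Pol III lay over 0 of 4 in the control (0.426%) and over 0 of 4 under Kap1 KD (0.188%). Of the 3845 annotated noncoding genes, 8.17% had KAP1, 14.9% H3K27ac and 7.13% control Pol II over the promoter.

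**Figure D1:**
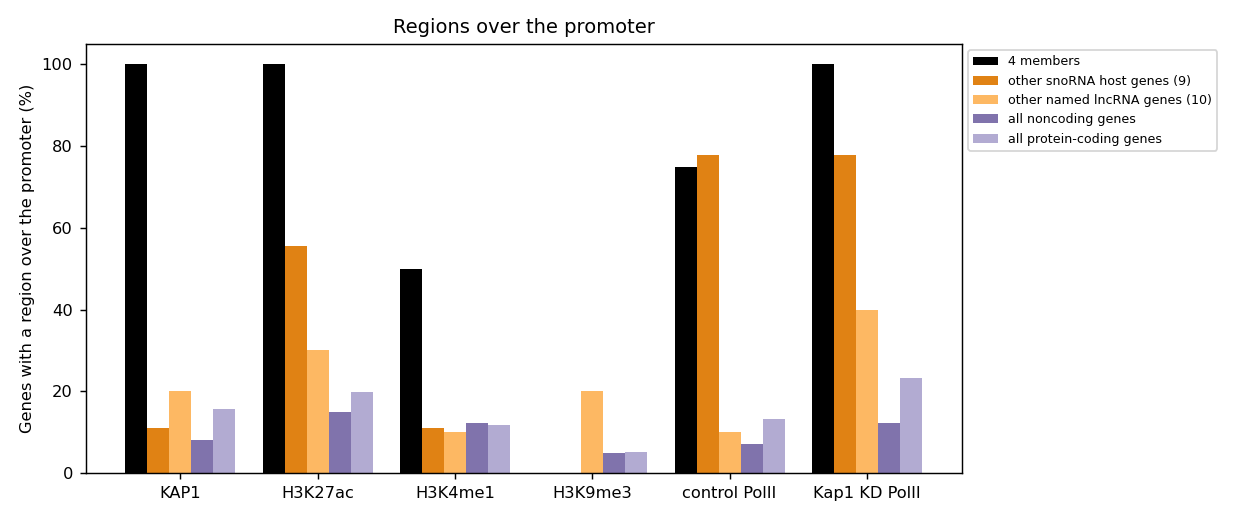
Percentage of genes with a listed region over the promoter (y axis) for each antibody and condition (x axis), in the 4 members, 9 other snoRNA host genes, 10 other named long noncoding RNA (lncRNA) genes, the 3845 noncoding genes and the 22380 protein-coding genes. KAP1 lay over 4 of 4 members and over 1 of 9 other snoRNA host genes, and H3K9me3 over no member. Bars have no error because each list is 1 library.

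The same held further from the starts. Beyond the promoter, KAP1 lay in the gene body of 4 of 4 members (19.0% of the 31641 genes that extend past the promoter), as did H3K27ac (32.9%), H3K4me1 (40.7%), control Pol II (11.8%) and Kap1 KD Pol II (21.6%). H3K9me3 lay in 0 of 4 gene bodies (20.5%) and Pol III in 0 of 4 in the control (2.88%) and 0 of 4 under Kap1 KD (0.506%). Within 10 kb of the gene the counts were again 4 of 4 for KAP1 (27.6%), H3K27ac (45.6%), H3K4me1 (52.6%), control Pol II (17.9%) and Kap1 KD Pol II (30.6%). They were 0 of 4 for H3K9me3 (34.2%), control Pol III (4.86%) and Kap1 KD Pol III (1.22%). The nearest H3K9me3 region was 17.3 kb from Neat1, 22.8 kb from Malat1, 38.7 kb from Snhg1 and 252 kb from Gas5. The nearest control Pol III peak to any member was 235 kb from Gas5. Numbers are missing from the Pol II and Pol III lists, and the reason is not stated in the sources used here. No number is missing between the listed Pol II peaks that flank a member in either condition. For Pol III, 1 number is missing from the control list in the 7040 kb between the peaks that flank the 3 members on chromosome 19, and 2 from the Kap1 KD list in the 10800 kb around Gas5, so whether a call near those genes was left out of the lists is unknown.

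The width of the Pol II peak differed widely between the members. The control peak over Neat1 was 28962 bp wide, ranked 3 of 5015 by width, and carried a score of 2057, ranked 2. The score is a whole number given by the authors whose meaning was not stated, and it is used here only to rank peaks within a list and to compare ratios with those of other peaks. Over Malat1 the control peak was 10333 bp wide (rank 62) with a score of 927 (rank 37). The host genes had narrower peaks, of 3403 bp over Gas5 (rank 517, score 236) and 2992 bp over Snhg1 (rank 613, score 231). The median width of control peaks was 921 bp, and 87.777% of them were narrower than the peak of Snhg1, the narrowest of the 4.

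Under Kap1 KD the order by width was the same, and by score Snhg1 stood above Gas5. The peak over Neat1 was 34995 bp wide, ranked 4 of 12862, with a score of 4387 (rank 2). Malat1 had a peak of 11417 bp (rank 87) with a score of 1861 (rank 36). Gas5 had 4230 bp (rank 703, score 479) and Snhg1 3391 bp (rank 1016, score 492). Between 92.101% (Snhg1) and 99.969% (Neat1) of the Kap1 KD peaks were narrower, against a median width of 799 bp.

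**Figure D2:**
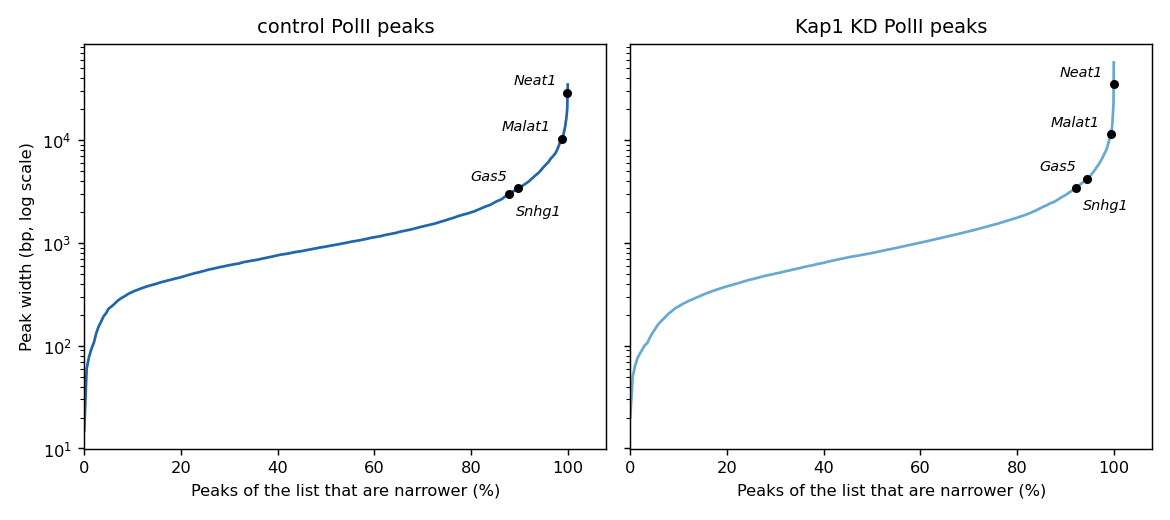
Width of Pol II peaks in bp (y axis, log scale) against the percentage of peaks of the same list that are narrower (x axis), for the control and the Kap1 KD list, with a line for the whole list and a point for the widest peak over each member. Neat1 and Malat1 sit at the upper end of both curves, and Gas5 and Snhg1 lie above 87.777% of the control peaks.

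Peaks were wider and scored higher under Kap1 KD at all 4 members, as at most genes. The width ratio of Kap1 KD to control was 1.21 for Neat1, 1.1 for Malat1, 1.24 for Gas5 and 1.13 for Snhg1. Over the 3338 distinct pairs of peaks that cover a gene in both conditions, 77.9% were wider under Kap1 KD, and the median ratio was 1.38 with quartiles of 1.03 and 2.12. The score ratio was 2.13 for Neat1, 2.01 for Malat1, 2.03 for Gas5 and 2.13 for Snhg1, where the median of all pairs was 2.1 (quartiles 1.61 and 2.82) and 94.8% were above 1. All 8 of these ratios lay between the quartiles of all pairs. The number of bases of the gene under Pol II was the same in both conditions for Neat1 and Malat1, which were covered from end to end. For Gas5 it was 3403 bp in the control and 4118 bp under Kap1 KD (ratio 1.21). The control peak of Gas5 began 512 bp inside the gene. For Snhg1 it was 2712 bp in the control and 2535 bp under Kap1 KD (ratio 0.935), because the Kap1 KD peak ended 412 bp before the 3′ end of the gene and the control peak 235 bp before it. The ratio was 1.07 when 10 kb to each side were included and 1.13 for the peak's whole width. Over the 4266 genes with Pol II in both conditions the median ratio of covered bases was 1.38 (quartiles 1.0 and 2.34), and 70.0% were above 1. This ratio cannot exceed gene length over control-covered bases, and control Pol II already covered 82.6% (Gas5) to 100% (Neat1 and Malat1) of the members. The 4 members therefore had to fall below the median of 1.38, and nothing is read from this. The ratio of Snhg1 was below the lower quartile. By bases of gene covered, Neat1 ranked 10 of all genes and 3 of the noncoding genes in the control, and 41 and 4 under Kap1 KD, ranks that its length also sets.

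Neat1 was covered by Pol II over its whole 20771 bp in both conditions, so the short transcript of 3170 bp and the 17599 bp of the gene beyond its 3′ end had the same coverage. The control peak began 452 bp before the 5′ end and ran 7739 bp past the annotated 3′ end. Under Kap1 KD the peak began 5205 bp before the 5′ end and ran 9019 bp past the 3′ end. This peak spanned 3 control peaks, of 447, 28962 and 3020 bp. Of the 4289 Kap1 KD peaks that overlapped a control peak, 0.35% spanned 3 or more. That share is over peaks of all widths. A wider peak can span more control peaks, and peaks of similar width were not compared. At its upstream end the Kap1 KD peak reached the genes Gm9783 and Frmd8, the nearest neighbours on that side. In the control the separate peak of 3020 bp already overlapped both of these genes. ChIP-seq carries no strand with which to assign the signal.

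KAP1 was also extended over Neat1. The KAP1 peak over the Neat1 start was 9642 bp wide, ranked 6 of 12470 by width, with a score of 1026.7 that ranked 488. It ran from 673 bp before the 5′ end and covered the short transcript completely. Further KAP1 peaks of 1559 and 2015 bp lay within the long transcript, so that KAP1 covered 60.4% of the gene in all. The active marks were called with another program than KAP1. Median widths were 532 bp for H3K27ac, 617 bp for H3K4me1 and 1098 bp for KAP1, so their coverage is not set against that of KAP1. H3K27ac covered 7.98% of Neat1, 42.2% of the stretch of the short transcript and 1.81% of the rest, and H3K4me1 covered 26.0% of the gene, 18.8% of the short transcript and 27.3% of the rest. H3K27ac covered 27.9% of the promoter window and H3K4me1 none of it.

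Malat1 lies 22036 bp downstream of Neat1. Its Pol II peak began 1320 bp before the 5′ end in the control and 1827 bp before it under Kap1 KD, and ran 2031 and 2608 bp past the 3′ end. The KAP1 peak over its start was 3824 bp wide (rank 156, score 637.34, rank 856), and a second, of 1230 bp, touched the 3′ end. H3K27ac covered 69.8% and H3K4me1 59.8% of the gene, and they lay in opposite order along it. With the gene cut into 3 equal parts, H3K27ac covered 95.7% of the 5′ part, 100% of the middle and 13.7% of the 3′ part. H3K4me1 covered 23.8%, 55.6% and 100%. The main H3K27ac region, 4768 bp wide, ranked 813 of 57562, and the main H3K4me1 region, 4126 bp wide, ranked 1502 of 74014. Gm20417, a noncoding gene annotated on the opposite strand within Malat1, shares these regions. Between Malat1 and Neat1 the active marks continued, with 50.6% of the 22036 bp under H3K27ac, 47.9% under H3K4me1 and 12.0% under KAP1. Pol II covered 47.0% of this stretch in the control and 67.7% under Kap1 KD.

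**Figure D3:**
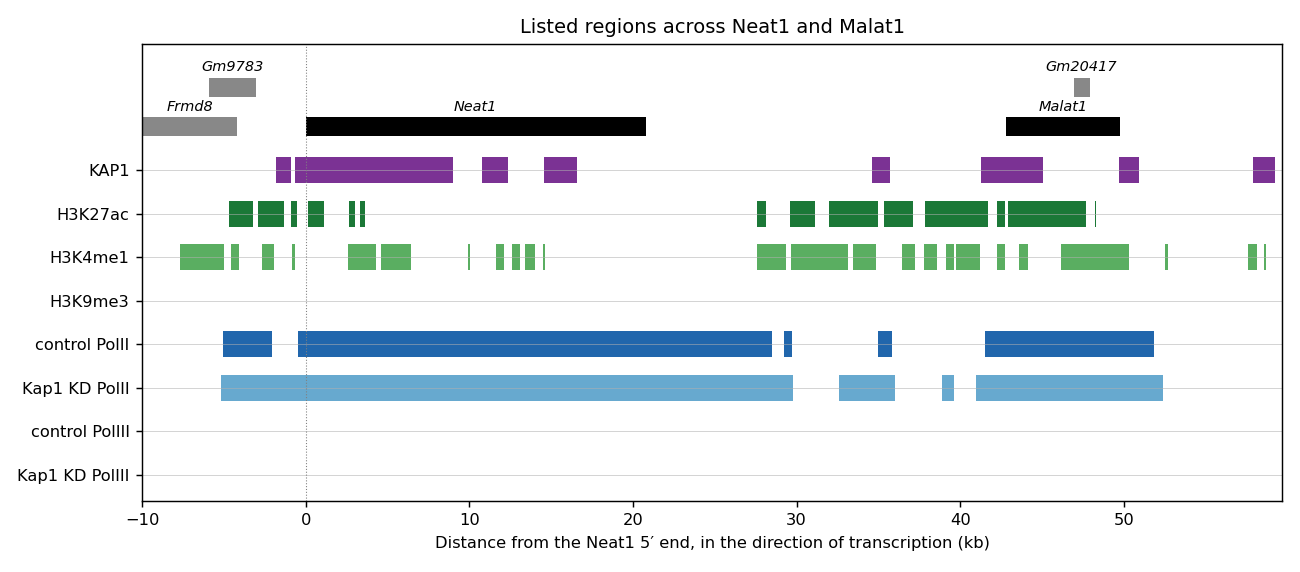
Listed regions of the 8 lists (rows, coloured bars) across Neat1 and Malat1, by distance from the Neat1 5′ end in kb along the direction of transcription (x axis), with the members in black and their neighbours in grey above. In the control 1 Pol II peak of 28962 bp covers Neat1, and under Kap1 KD 1 peak of 34995 bp covers it with its flanks, while the rows of H3K9me3 and Pol III are empty.

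Gas5 was the member without control Pol II over the promoter window. Its control peak ran from 162965065 to 162968467 and thus covered the start of the transcript cluster, 741 bp into the gene, but not the annotated 5′ end of the gene. Under Kap1 KD the peak began 39 bp before the 5′ end and ended 73 bp past the 3′ end. Counted at the start of any transcript, Pol II lay over the promoters of 4 of 4 members in both conditions. The gene overlaps Zbtb37, a zinc finger gene on the opposite strand whose 5′ end lies 427 bp from that of Gas5. The Kap1 KD peak reaches Zbtb37, and the control peak lies over the promoter window of Zbtb37. The signal near the start therefore cannot be assigned to either gene in either condition. The KAP1 peak of 1486 bp (rank 2560, score 250.85, rank 2294) covered both start sites of Gas5, and the next KAP1 peak on either side was at least 92021 bp away. H3K27ac lay in 7 short regions of 123 to 489 bp within or at the end of the gene, covering 51.7% of it, and 1 of 578 bp at the promoter. H3K4me1 covered 2.14% of the gene, in a single region of 88 bp.

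Snhg1 starts 127 bp from the 5′ end of Slc3a2, which encodes the heavy chain of an amino acid transporter and is transcribed in the opposite direction. The Pol II peak covered the start of both genes in both conditions, beginning 280 bp before the Snhg1 start in the control and 856 bp before it under Kap1 KD, and the share of each gene cannot be told apart. The KAP1 peak, 1273 bp wide (rank 3881), also lay over both starts. Its score of 82.82 ranked 7716 of 12470, the lowest of the promoter peaks of the 4 members. H3K27ac formed a region of 2502 bp (rank 3582) that began 13 bp before the start and covered 84.5% of the gene. H3K4me1 covered 23.6% of it, all beyond 1819 bp from the start.

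**Figure D4:**
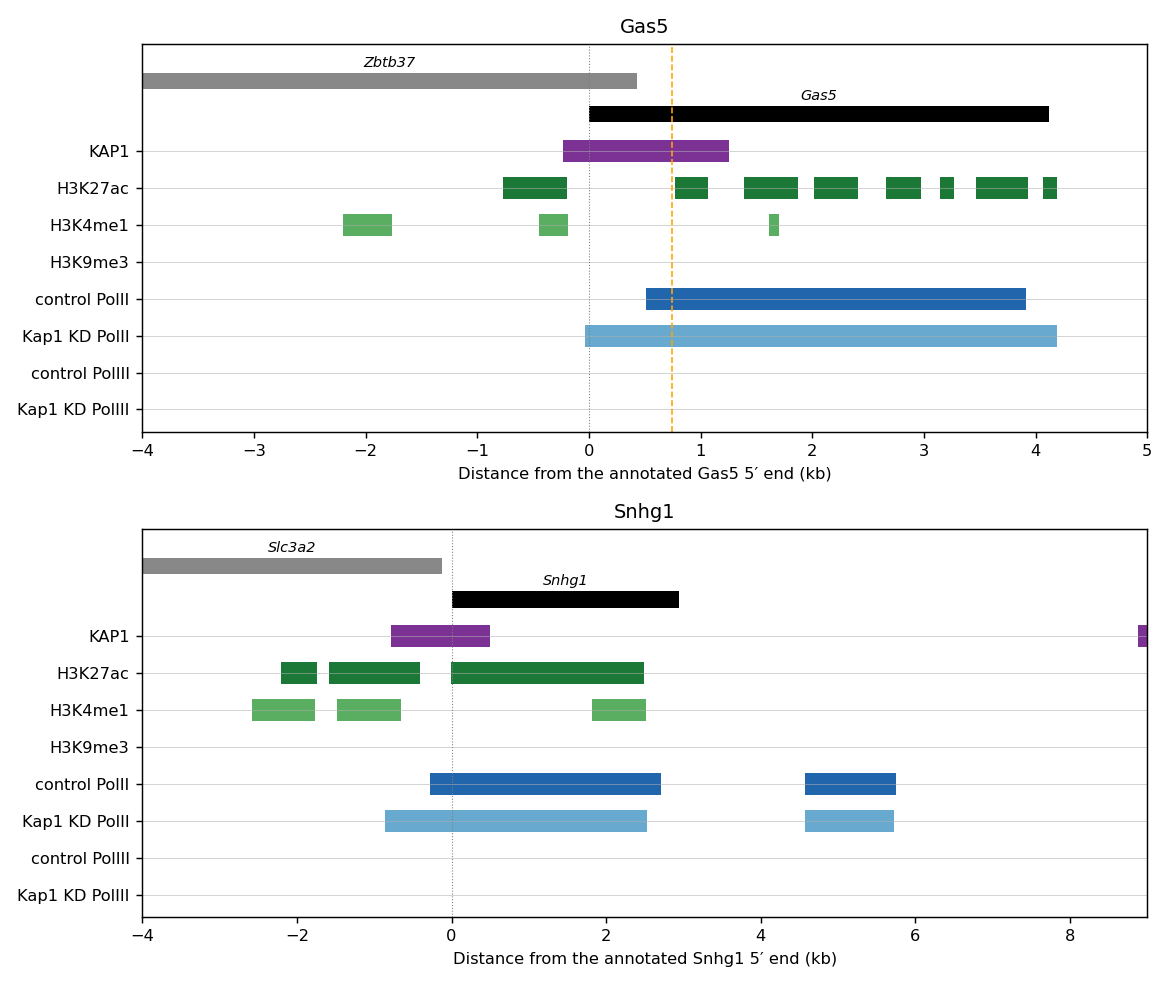
Listed regions of the 8 lists (rows, coloured bars) around Gas5 and Snhg1, by distance from the annotated 5′ end of each gene in kb (x axis), with the members in black and their neighbours in grey; the dashed line marks the start of the Gas5 transcript cluster 741 bp into the gene. The control Pol II peak of Gas5 begins 512 bp inside the gene, and the Snhg1 peak spans the start it shares with Slc3a2.

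The snoRNA genes inside both hosts lay under Pol II. All 9 snoRNA genes annotated in Gas5 and all 8 in Snhg1 overlapped a Pol II peak in the control and under Kap1 KD, compared with 10.2% and 11.1% of the 1552 annotated snoRNA genes. These 17 share 2 peaks in each condition and are not separate observations. H3K27ac overlapped 8 of the 9 in Gas5, all but SNORD78, and 8 of 8 in Snhg1 (6.57% of snoRNA genes). KAP1 overlapped 1 of the 9, SNORD74, and 0 of 8 in Snhg1 (1.8%). Pol III overlapped 0 of the 17 in either list, against 0.322% of snoRNA genes in the control and 0.451% under Kap1 KD.

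Cut into 3 equal parts, 4 of 4 members had more of the 5′ than of the 3′ part under KAP1, as did 86.2% of the 4121 genes with KAP1 over the promoter, so the count says nothing particular of the members. KAP1 covered 100%, 97.7%, 91.5% and 50.4% of the 5′ part of Neat1, Malat1, Gas5 and Snhg1. In the 3′ part it covered 29.1% of Neat1, 2.54% of Malat1 and none of Gas5 and Snhg1. H3K27ac covered less of the 3′ than of the 5′ part in Neat1, Malat1 and Snhg1, and more in Gas5. In Gas5 H3K27ac covered 21.7% of the 5′ part, where KAP1 lay, and 70.3% and 63.1% of the middle and 3′ parts, where KAP1 was not listed. H3K4me1 covered more of the 3′ than of the 5′ part in Malat1 and Snhg1 and less in Neat1 (4.49% and 50.7%).

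**Figure D5:**
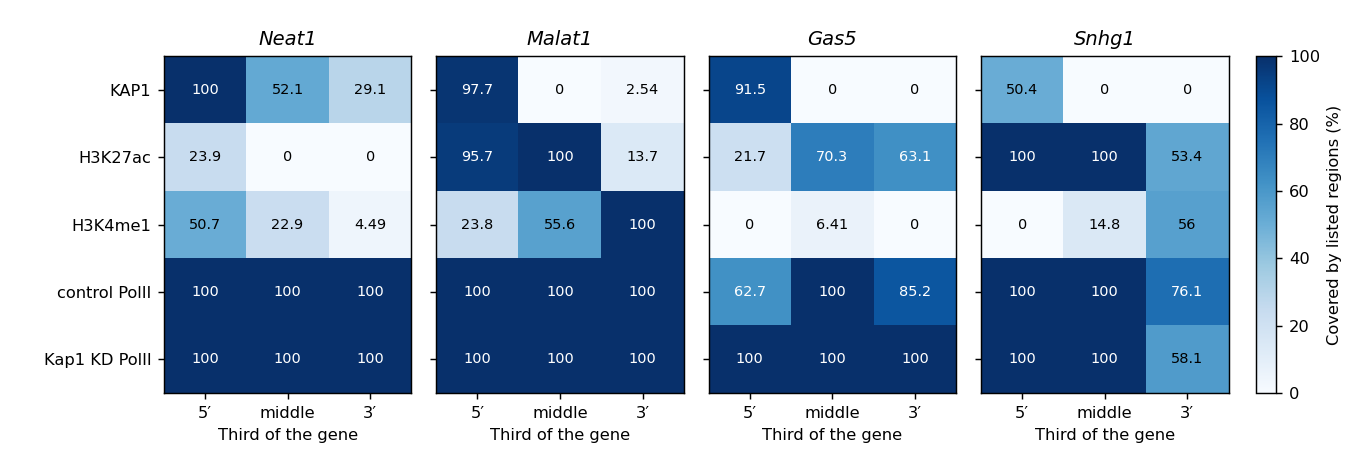
Percentage of bases covered by listed regions (colour and printed value) in 3 equal parts of each member (x axis, 5′ to 3′) for KAP1, H3K27ac, H3K4me1 and Pol II in the control and under Kap1 KD (rows). KAP1 covers 50.4 to 100% of the 5′ part and at most 29.1% of the 3′ part, and Pol II covers Neat1 and Malat1 completely. H3K9me3 and Pol III, not drawn, cover 0% of every part.

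Other genes of the same classes were counted in the same way. Of 18 listed symbols of snoRNA host genes, Gas5 and Snhg1 among them, 9 others were found in the annotation, and the small number limits what a count shows. Pol II lay over 7 of these 9 promoters in each condition, H3K27ac over 5, H3K4me1 over 1, H3K9me3 over 0 and KAP1 over 1. That 1 was Snhg9, a short host gene under a control Pol II peak of 6792 bp and a Kap1 KD peak of 7802 bp. Both peaks are far wider than the gene, so their widths are not those of Snhg9 alone. The others with the widest control peaks were Taf1d, whose protein serves RNA polymerase I, with 12580 bp in the control and 12880 bp under Kap1 KD, and Snhg3 with 4386 and 5295 bp. Of the 7 other hosts with a control peak, 5, Snhg9 among them, had a wider one than both Gas5 and Snhg1.

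Of 10 other named long noncoding RNA genes, KAP1 lay over 2 promoters, H3K27ac over 3, H3K4me1 over 1 and H3K9me3 over 2. Pol II lay over 1 in the control and 4 under Kap1 KD. The 10 include 2900097C17Rik, which the annotation types as protein-coding and which gives 1 each of the KAP1, H3K9me3 and Kap1 KD Pol II counts. The 2 with control Pol II in the gene were Pvt1, the neighbour of Myc, with 16690 bp in the control and 17935 bp under Kap1 KD, and Tug1 with 2528 and 4587 bp. H19, an imprinted fetal RNA, had H3K9me3 over its promoter and none of the other lists, and Xist, which coats the inactive X chromosome, had none of the 8 there.

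Genes whose protein products work with the RNAs were also counted. Of the 22380 protein-coding genes, 15.7% had KAP1 over the promoter, 19.9% H3K27ac, 11.8% H3K4me1, 13.1% control Pol II and 23.3% Kap1 KD Pol II, and the H3K4me1 counts of the 3 lists were near that share. Of 16 genes of paraspeckle proteins, which bind Neat1 RNA, KAP1 lay over 7 promoters, H3K27ac over 10, H3K4me1 over 1 and Pol II over 11 in the control and 12 under Kap1 KD. The widest control peak was at Hnrnpa1, an RNA-binding protein gene, with 10435 bp and 11542 bp under Kap1 KD, followed by Hnrnpk (4703 and 4572 bp) and Ewsr1 (2648 and 2430 bp). Of 15 genes of nuclear speckle and splicing proteins, KAP1 lay over 8 promoters, H3K27ac over 7, H3K4me1 over 2 and Pol II over 10 and 12. Here the widest control peaks were at the splicing factor genes Srsf6 (10709 bp), Srsf2 (7598 bp) and Srsf3 (7574 bp), with 2956, 8108 and 10981 bp under Kap1 KD. Of 15 genes of the box C/D snoRNA proteins and of translation proteins with 5′ terminal oligopyrimidine messages, KAP1 lay over 9 promoters, H3K27ac over 8, H3K4me1 over 2 and Pol II over 11 and 12. Ncl, which encodes nucleolin, had 18318 bp in the control and 18501 bp under Kap1 KD, Npm1, the nucleophosmin gene, 16037 and 16383 bp, and Nop56, a core protein of box C/D particles, 8100 and 8509 bp. H3K9me3 or Pol III lay over 0 of these 46 promoters, where 5.24% of protein-coding genes had H3K9me3 and 0.344% and 0.134% Pol III, and nothing is read from that count. The control peak of Neat1 was wider than that of every gene in these 5 lists, and that of Malat1 was narrower than those of Taf1d, Pvt1, Hnrnpa1, Srsf6, Ncl and Npm1.

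Over the promoter, Neat1 and Snhg1 had the same presence and absence in all 8 lists, with KAP1, H3K27ac and both Pol II lists. Besides a given member, 851 genes shared that pattern (2.28% of all genes), 68 of them noncoding. The noncoding genes with the widest control peaks among them, apart from the members, were B230369F24Rik (20157 bp), C130036L24Rik (18318 bp) and RP24-263P17.1 (15045 bp). The peak of 20157 bp also covers Hnrnpu and Fam36a, and the peak of 18318 bp is that of Ncl. The pattern of Malat1, with H3K4me1 in addition, was shared by 308 genes (0.826%), 34 of them noncoding, led by Gm10575 (10440 bp), Gm16537 (8355 bp) and Gm11335 (6528 bp). The pattern of Gas5, with H3K4me1 and without control Pol II, was shared by 147 genes (0.394%), 13 of them noncoding, of which Gm16256 had a control peak elsewhere in the gene (1082 bp).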

How the data were processed

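ChIP-seq libraries of Hepa 1-6 cells gave 8 lists of regions, 1 library each, and the 5 input samples among the 13 have no list and were not analysed here. Per the methods of the study, the authors mapped reads with Bowtie to mm9, used MACS with total input as background for KAP1 and Pol II, and ChIP-Part for the histone marks. The program for Pol III and the options of each program are not given in the sources used here. The deposited lists hold coordinates, which were used as given, and for KAP1, Pol II and Pol III a score set by the authors. Depth is unknown, so no interval could be attached. Between 22.6% and 55.0% of the peak numbers are missing from the Pol II and Pol III lists.

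The assembly mm9 (NCBIM37) and GENCODE M1 gave genes, positions counted from 1, and sequences. Overlap meant at least 1 shared bp. Promoters were the 250 bp on either side of the gene's 5′ end, gene bodies the rest of the gene. For Pol II the widest peak over a gene was taken and ranked within its list. No test was made, because the members, and the gene lists compared with them, were chosen with earlier results of these data known. Named genes were the members, genes within 10 kb that share a region with one, up to 3 genes per list by control Pol II width, and up to 3 noncoding genes with the same promoter pattern. H19, Xist, 2900097C17Rik, Hnrnpu, Fam36a, Wdr74, SNORD74 and SNORD78 were named after their values were seen. Snord22, inside Snhg1, was left out of the host list. A promoter sequence and a neighbouring gene are not reported here. Alternatives changed the promoter width, the share of it covered, the start sites, the overlap, the distance, the ranking and the merging of peaks. The scripts were tested on simulated data and ran in Python 3.11.15 with NumPy 2.4.6 and matplotlib 3.10.9.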

Additional observations from a re-analysis of the deposited data

How the results depend on the processing

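Of 99 recomputed values, 83 stayed within the limits set for a change, 14 moved and 2 changed direction. The factor that set a move was 1.5, so a fall from 4 members to 3 did not count as one. With only peaks above the median score, KAP1 lay over the promoter of 3 members and in the gene body of 3. The 83 also include the counts of Pol III, which were 0 at every setting. Counted over at least 0.5 of the promoter window, H3K27ac lay over 2 members and H3K4me1 over 0. H3K4me1 lay over 4 members with a promoter of 1 kb to each side, and over 0 with regions above the median width. H3K9me3 lay within 20 kb of 1 member, Neat1. Ranked by score in place of width, 99.242% (Malat1), 94.636% (Gas5) and 94.477% (Snhg1) of control Pol II peaks were lower, and 99.72%, 97.512% and 97.629% of Kap1 KD peaks. With peaks less than 1 kb apart merged, 99.097%, 97.665% and 91.114% of Kap1 KD peaks were narrower than those of Malat1, Gas5 and Snhg1. The covered length of Snhg1 under Kap1 KD relative to control, 0.935, became 1.07 with 10 kb to each side and 1.13 for whole peak widths. Gas5 has no control value for a peak over its promoter. No paired analysis was possible because each group holds 1 library, and for the same reason no replicate could be left out.

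The lists carry no reads, so a missing region cannot be told from one below the calling threshold, and the Kap1 KD and control lists could not be scaled to each other. KAP1 and the histone marks come from other cells than Pol II and Pol III. Signal at divergent or overlapping genes cannot be assigned to a strand.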

Other observations

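Near Snhg1, Pol II lay 4576 bp downstream of the start, beyond the annotated 3′ end, in a peak of 1179 bp (score 45) in the control and 1161 bp (score 112) under Kap1 KD. Over the start of Wdr74, a ribosome biogenesis gene 12343 bp from the Snhg1 start, the peak was 757 bp wide in the control (score 35) and 661 bp under Kap1 KD (score 52).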
